A study of Mus musculus and Homo sapiens with 14 samples.

Results

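The genes described here encode the polypeptides of mouse major histocompatibility complex (MHC) class I molecules. They are B2m, the invariant light chain beta-2 microglobulin, and 9 heavy chains: H2-K1, H2-D1, H2-T22, H2-T23, H2-T24, H2-Q4, H2-Q6, H2-Q7 and H2-M3. They were chosen by gene symbol, and all 10 had a row in both deposited mouse tables, among 50559 rows for EL4 tumours and 55969 rows for EG7-OVA cells. A class I molecule is a heavy chain that folds around a short peptide and pairs with B2m, and the complex shows peptides from inside the cell to CD8+ T cells. The classical heavy chains of the b haplotype, H2-K1 and H2-D1, are made by nearly all nucleated cells, whereas the nonclassical chains of the Q, T and M regions are less variable and many present a narrow set of ligands. Transcription of most class I genes is raised by interferons and NF-kappaB, and in lymphoid cells it depends largely on the class I transactivator NLRC5.

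RNA was measured by RNA sequencing in 5 mouse groups of 2 libraries each. EL4 is a mouse T-cell lymphoma line, and its tumours were labelled P3 or P0 with genotype WT. The labels do not say what P3 and P0 stand for, nor the host strain or age. EG7-OVA is a derivative of EL4 that carries ovalbumin. EG7-OVA cells, also labelled WT, were given azacytidine at 1.5 µM, decitabine at 0.2 µM or the solvent DMSO at 0, 24 and 48 h and were harvested at 72 h. Azacytidine and decitabine are nucleoside analogues that trap the enzymes that methylate DNA, and they were used at different doses. The series concerns such drugs as a primer for PD-1 blockade in lymphoma. The series also held 4 libraries of NKYS cells, which are not used here. Library totals ran from 21621580 to 25328708 counts in EL4 and from 15690749 to 21048978 counts in EG7. The labels do not say whether the 2 libraries of a group came from separate animals or cultures, so the p-values measure only the spread between these samples. All 10 T-cell markers checked (Cd3e, Lck, Thy1 and others) had reads in every library. They summed to 1911 and 2071 CPM (counts scaled to library size) in P3 tumours, against 2533 and 2252 CPM in P0 tumours. In EG7 they summed to 2532 and 2051 CPM with azacytidine and 2283 and 2457 CPM with decitabine, against 1794 and 1697 CPM with DMSO. These sums were thus lower in P3 than in P0 and higher with the drugs than with DMSO, and their part in the class I results was not tested.

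In the GENCODE vM21 annotation of mm10, B2m lies on chromosome 2 (chr2:122147686-122153083, plus strand) and the 9 heavy chains lie in the H2 complex on chromosome 17. From low to high coordinates these are H2-K1 (chr17:33996017-34000347, minus strand), H2-D1 (chr17:35262730-35267499, plus strand), H2-Q4 (chr17:35379617-35385290, plus strand), H2-Q6 (chr17:35424850-35430055, plus strand) and H2-Q7 (chr17:35439155-35443773, plus strand). H2-T24 (chr17:36005695-36020560), H2-T23 (chr17:36029773-36032855) and H2-T22 (chr17:36037128-36042747) follow on the minus strand. H2-M3 (chr17:37270220-37274484, plus strand) is the most distal. Some genes of the Q and T regions share stretches of sequence, which bears on how reads were assigned. Of all 100-base windows in their transcripts, 11.98% for H2-Q7, 10.8% for H2-Q6 and 8.86% for H2-T22 also occurred in another gene. Among the genes of this annotation, the one that shared most was H2-Q10 for H2-Q7 (5.56%), H2-Q7 for H2-Q6 (8.36%) and H2-T10 for H2-T22 (6.92%). The annotation gave H2-Q9 and H2-T9 no position, so sequence shared with them was not counted and the shares may be too low. The share was between 0% and 3.59% for the other members, and it was 0% for B2m, H2-T24 and H2-M3. Over 50-base windows it was 34.5% for H2-T22, 32.0% for H2-Q6, 26.4% for H2-Q7 and 21.8% for H2-Q4. For H2-T23 it was 13.6%, for H2-D1 12.8% and for H2-K1 9.63%, and for H2-T24, H2-M3 and B2m 3.17% or less. Levels of H2-Q6, H2-Q7 and H2-T22 are therefore the most uncertain between near copies. Those of H2-Q4, H2-T23, H2-D1 and H2-K1 are also uncertain where reads are short.

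Promoter windows of 250 bases before the annotated start were available from RefSeq (GRCm38.p6) for 9 of the 10 members, all but H2-T24. Those of 5 members are shown because the results turn on them: H2-K1 and H2-T22 rose with both drugs, H2-Q6 had no read in DMSO, H2-Q7 is its near copy, and B2m did not pass the test in any comparison. Capitals mark matches on either strand to 3 motifs: GGGNNTNCC (an NF-kappaB site), TTTCNNTT (the core of an interferon-stimulated response element, ISRE) and TGACG (the core of a cAMP response element). The letters were chosen with these sequences and results known, and a match is a description of letters, not of binding. The windows are chr17:34000348-34000597 on the minus strand for H2-K1, chr17:36042743-36042992 on the minus strand for H2-T22, chr17:35424600-35424849 on the plus strand for H2-Q6, chr17:35438905-35439154 on the plus strand for H2-Q7 and chr2:122147437-122147686 on the plus strand for B2m, each written 5′ to 3′ on the strand of its gene.
H2-K1: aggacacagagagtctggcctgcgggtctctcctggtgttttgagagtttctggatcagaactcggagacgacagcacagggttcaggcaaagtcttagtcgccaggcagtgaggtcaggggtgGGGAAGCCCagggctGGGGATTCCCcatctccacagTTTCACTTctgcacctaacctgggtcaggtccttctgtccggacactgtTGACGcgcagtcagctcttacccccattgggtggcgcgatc
H2-T22: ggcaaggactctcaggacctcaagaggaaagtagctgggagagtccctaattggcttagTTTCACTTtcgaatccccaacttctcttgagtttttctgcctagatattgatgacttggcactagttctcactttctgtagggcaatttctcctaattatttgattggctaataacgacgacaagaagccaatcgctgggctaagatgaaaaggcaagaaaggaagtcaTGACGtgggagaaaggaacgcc
H2-Q6: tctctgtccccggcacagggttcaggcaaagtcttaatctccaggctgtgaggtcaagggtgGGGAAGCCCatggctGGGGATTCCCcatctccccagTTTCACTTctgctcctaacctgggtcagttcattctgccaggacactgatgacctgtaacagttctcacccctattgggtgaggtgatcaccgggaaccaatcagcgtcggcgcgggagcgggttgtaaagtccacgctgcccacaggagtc
H2-Q7: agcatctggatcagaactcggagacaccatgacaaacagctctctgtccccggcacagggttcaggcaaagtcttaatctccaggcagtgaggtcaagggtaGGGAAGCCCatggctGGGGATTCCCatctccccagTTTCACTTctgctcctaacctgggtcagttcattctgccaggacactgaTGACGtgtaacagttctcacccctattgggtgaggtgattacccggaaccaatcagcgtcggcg
B2m: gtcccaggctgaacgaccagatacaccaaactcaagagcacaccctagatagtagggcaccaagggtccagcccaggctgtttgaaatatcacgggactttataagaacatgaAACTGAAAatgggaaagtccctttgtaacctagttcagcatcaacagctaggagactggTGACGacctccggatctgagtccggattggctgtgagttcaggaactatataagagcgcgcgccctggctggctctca

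The NF-kappaB letters occurred in the windows of H2-K1, H2-D1, H2-Q4, H2-Q6 and H2-Q7, and in 14.0% of all 32851 RefSeq promoter windows of the same length. H2-Q4 had 1 match and the other 4 had 3 each, a pair of which overlap by all but 1 base. The ISRE core occurred in all 9 windows and in 21.3% of all promoters. Its longer form TTTCNNTTT, which contains the core, was found in B2m, H2-T22 and H2-T23 and in 9.37% of all promoters. The letters TGACG occurred in 7 of the 9 windows, all but H2-T23 and H2-Q6, and in 17.8% of all promoters. The windows of H2-Q6 and H2-Q7 aligned over 211 columns with 97.2% identical bases, those of H2-K1 and H2-D1 over 177 columns with 91.0%. CpG dinucleotides, the sites of DNA methylation, numbered from 5 in H2-T23 and H2-M3 to 14 in H2-D1, against a median of 6 over all promoters. DNA methylation itself was not measured in these libraries.

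Levels were compared between members as CPM per kilobase of merged exons. By group mean B2m was the highest member in all 5 groups, followed by H2-D1, H2-K1 and H2-Q4, and H2-Q6 was the lowest. In P3 tumours the ranges of H2-Q6 (0.106 to 0.147) and H2-Q7 (0.123 to 0.218) overlapped. In P3 tumours the per-kilobase level was 840 ± 133 for B2m, 347 ± 49.2 for H2-D1, 230 ± 36.1 for H2-K1 and 86.7 ± 2.51 for H2-Q4 (SD, n = 2), and in P0 tumours 757 ± 38.8 for B2m, 428 ± 11.3 for H2-D1, 279 ± 8.83 for H2-K1 and 94.2 ± 2.19 for H2-Q4. With DMSO the EG7-OVA cells held 707 ± 9.17 CPM per kilobase of B2m, 325 ± 8.21 of H2-D1, 297 ± 2.55 of H2-K1 and 51.7 ± 4.68 of H2-Q4. The ranges of H2-D1 and H2-K1 overlapped with azacytidine and with decitabine, but not in the other 3 groups. H2-T22, H2-T23, H2-M3, H2-Q7 and H2-T24 filled the middle ranks, in an order that changed between groups. With azacytidine H2-T23 stood at 33.8 ± 5.52 CPM per kilobase, sixth of the 10, and with DMSO at 9.04 ± 2.84, eighth and overlapping the range of H2-Q7. The 2 tables list different sets of gene symbols and were normalized separately, so levels are not compared between EL4 and EG7.

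**Figure D1:**
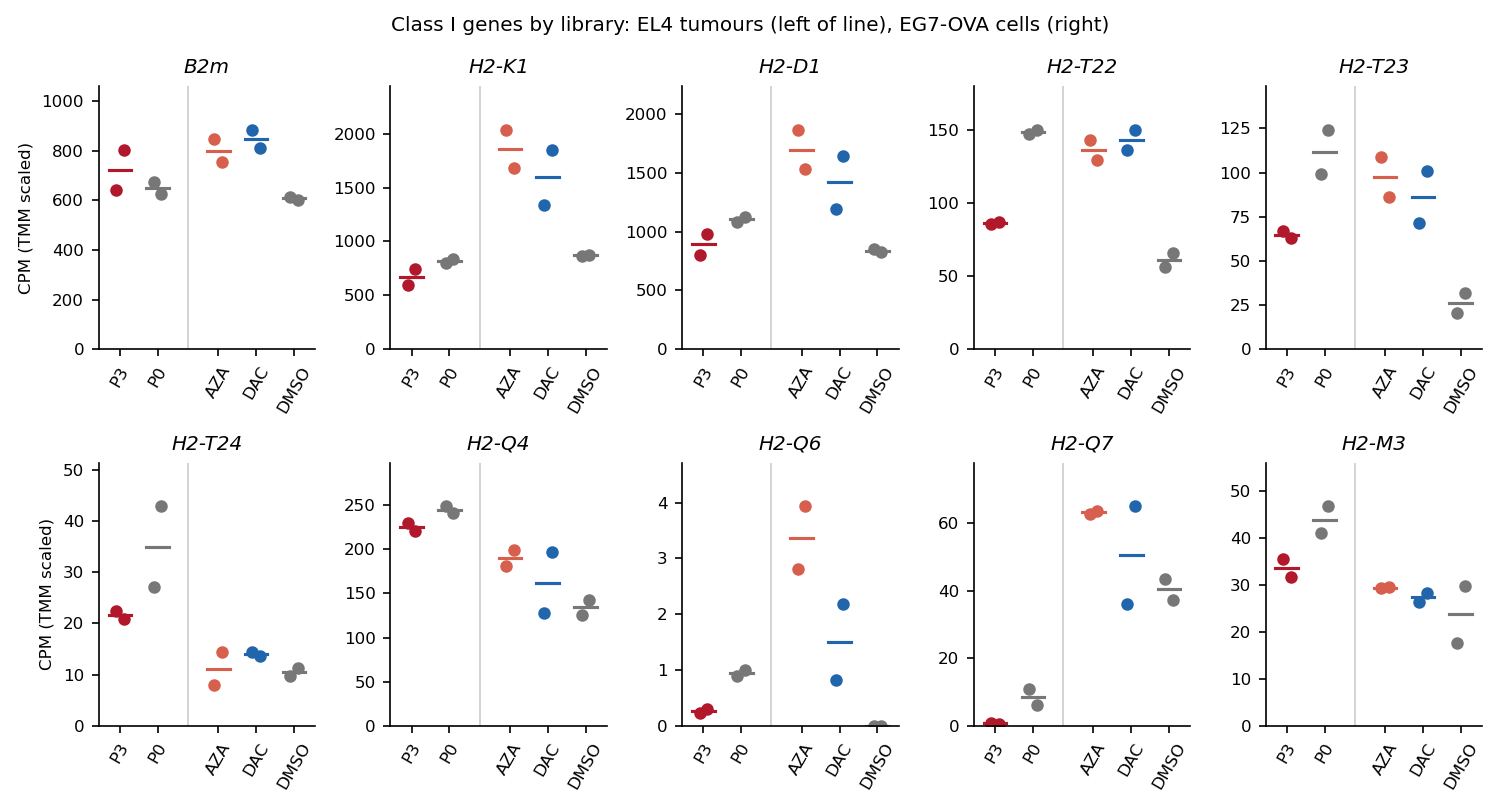
Level of each class I gene in CPM (TMM scaled) in every library, with P3 and P0 tumours left of the grey line and EG7-OVA cells given azacytidine (AZA), decitabine (DAC) or DMSO right of it; points are libraries and bars are means of 2. H2-T23, H2-T22, H2-K1 and H2-D1 sit higher in all drug-treated libraries than in DMSO, and H2-Q7 is between 0.527 and 0.929 CPM in P3 tumours and between 6.01 and 10.8 CPM in P0 tumours.

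In EL4 tumours, P3 held less RNA of the heavy chains H2-T22, H2-T23 and H2-Q7 than P0. The nonclassical H2-T24, H2-Q4 and H2-M3, the classical H2-K1 and H2-D1, and B2m did not pass the test. By edgeR's quasi-likelihood test at a Benjamini-Hochberg adjusted p of 0.05, H2-T22, H2-T23, H2-Q7 and H2-Q6 were lower and 0 of the 10 members rose. H2-Q6 passed the filter on low counts only through the P0 libraries, which favours a difference, so its call is set apart. Of the other 9 members, 3 fell. Among all 19993 genes tested, 38.7% were called, 19.9% lower and 18.8% higher, so the members' share is near the background. No member rose at an unadjusted p of 0.05 either, and DESeq2 and limma-voom each called 0 higher and 4 lower. The 4 of limma-voom were those of edgeR, whereas DESeq2 called H2-T24 (adjusted p = 0.0268) and not H2-Q6 (adjusted p = 0.136). The median log2 fold change of the members was -0.54, beside -0.0019 over all genes tested, and the libraries of the 2 groups did not overlap for 9 members, where 76.1% of all genes tested did not. A tumour holds other cells beside EL4 cells, and in bulk RNA fewer cells of a type and less RNA per cell cannot be told apart.

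The classical chains and B2m are taken first. H2-K1 stood at 599 and 749 CPM in P3 tumours, against 803 and 839 CPM in P0 tumours. H2-D1 stood at 804 and 983 CPM in P3 tumours, against 1083 and 1125 CPM in P0 tumours. For both genes both P3 libraries were below both P0 libraries, but the 2 P3 libraries differed more from each other than the P0 libraries did. The log2 fold changes were -0.28 ± 0.15 for H2-K1 (SE, edgeR adjusted p = 0.174) and -0.30 ± 0.15 for H2-D1 (adjusted p = 0.150), with 95% intervals of -0.65 to 0.08 and -0.67 to 0.06. B2m stood at 642 and 803 CPM in P3 tumours, against 674 and 627 CPM in P0 tumours. The groups overlapped, with one P3 library within the P0 range and one above it, and the log2 fold change was 0.15 ± 0.15 (adjusted p = 0.447, 95% interval -0.22 to 0.52).

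Among the T-region chains, H2-T22, which with its near copy H2-T10 is a ligand of a subset of gamma-delta T cells, stood at 85.9 and 86.9 CPM in P3 tumours, against 147 and 150 CPM in P0 tumours. Libraries of a group lay within a few CPM of each other and the groups were far apart, with a log2 fold change of -0.78 ± 0.08 (adjusted p = 0.00284). H2-T23 encodes Qa-1, which presents leader peptides of other class I chains to the receptors CD94/NKG2 of NK cells and T cells. It stood at 66.9 and 62.8 CPM in P3 tumours, against 99.0 and 124 CPM in P0 tumours, and fell by 0.78 on the log2 scale (SE 0.13, adjusted p = 0.00913). H2-T24 stood at 22.5 and 20.9 CPM in P3 tumours, against 27.2 and 42.9 CPM in P0 tumours, without overlap but with P0 libraries far apart, and did not pass in edgeR (-0.69 ± 0.23, adjusted p = 0.0592), though it did in DESeq2. The 5 H2-T rows among the members and the class I-like genes listed below were also summed. That sum fell by 0.69 (SE 0.11, adjusted p = 0.00779). It leaves out H2-T-ps and Gm7030, which share sequence with H2-T23, and cannot restore reads that may have been dropped.

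H2-Q6 and H2-Q7 encode Qa-2 antigens, class I molecules that can be anchored by a lipid. H2-Q7 stood at 0.929 and 0.527 CPM in P3 tumours, against 10.8 and 6.01 CPM in P0 tumours, from 21 and 12 reads against 229 and 151 reads. H2-Q6 had 5 and 7 reads in P3, against 19 and 25 reads in P0. Both were rare transcripts in every tumour library. H2-Q7 had a log2 fold change of -3.52 ± 0.45 (adjusted p = 0.00453). That of H2-Q6 was -1.82 ± 0.43 (adjusted p = 0.0238), and it passed in 5 of 14 alternatives, with adjusted p from 0.0168 to 0.375 where one was given. H2-Q4, the most abundant Q-region gene in the tumours, stood at 230 and 221 CPM in P3 tumours, against 249 and 241 CPM in P0 tumours, and did not pass (-0.12 ± 0.09, adjusted p = 0.321). Summed over H2-Q4, H2-Q6 and H2-Q7 the log2 fold change was -0.17 ± 0.09 (adjusted p = 0.190), since H2-Q4 makes up most of that sum. Over all 8 H2-Q rows it was -0.25 ± 0.09 (adjusted p = 0.0807). H2-M3, which presents N-formylated peptides of bacteria and mitochondria, stood at 35.4 and 31.7 CPM in P3 tumours, against 41.0 and 46.7 CPM in P0 tumours (-0.39 ± 0.12, adjusted p = 0.0516).

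Of the 9 heavy chains together, 41718 and 49130 counts were found in P3 tumours and 51982 and 64705 counts in P0 tumours. Their summed log2 fold change was -0.33 ± 0.16 (adjusted p = 0.150). The ratio of heavy chain counts to B2m counts was 2.88 and 2.69 in P3, against 3.65 and 4.11 in P0, so each P3 library lay below both P0 libraries. With 2 libraries a group the smallest two-sided p of an exact permutation test is 0.333, and no test of the ratio was made. The ratio of H2-K1 to H2-D1 counts was 0.745 and 0.762 in P3, against 0.741 and 0.746 in P0, with overlapping groups. Nonclassical chains made up 23.9% and 19.6% of heavy chain counts in P3, against 23.4% and 23.7% in P0, and these groups overlapped too.

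Markers of several other cell types differed between the tumour groups. The summed level of 12 macrophage markers was 361 and 358 CPM in P3 tumours, against 1356 and 1686 CPM in P0 tumours. Of the 12, 10 fell, where 19.9% of all genes tested were lower. For 9 B-cell markers it was 28.4 and 28.7 CPM in P3 tumours, against 205 and 403 CPM in P0 tumours, with 1 to 3 of them at 0 in each library, Ighm in all 4. In P3 tumours 10 dendritic cell markers came to 51.9 and 56.8 CPM, against 205 and 239 CPM in P0 tumours, and 6 NK cell markers to 34.0 and 24.1 CPM in P3 tumours, against 141 and 152 CPM in P0 tumours. Fibroblast markers summed to 1670 and 1023 CPM in P3 tumours, against 2862 and 2928 CPM in P0 tumours. Of the 7 fibroblast markers, Col1a1 and Col1a2 were lower, Pdgfrb was higher and 4 did not pass. That is 42.9% called, beside 38.7% over all genes tested. Endothelial markers summed to 235 and 158 CPM in P3 tumours, against 225 and 227 CPM in P0 tumours, with overlapping groups. Of these 7 markers, 0 passed. Neutrophil markers summed to 18.8 and 65.3 CPM in P3 tumours, against 8.47 and 10.9 CPM in P0 tumours. The part of these cells in the class I results was not tested. The edgeR calls also depended on the P0 libraries: without P0 replicate 1 or P0 replicate 2 edgeR called 0 members and 0 genes in all, whereas DESeq2 called 4 and 2 members lower. The log2 fold changes without P0 replicate 1 and without P0 replicate 2 were -0.80 and -0.78 for H2-T22, -3.05 and -3.89 for H2-Q7, and -0.95 and -0.62 for H2-T23. Without P3 replicate 2 edgeR called 8 members lower, H2-K1 and H2-D1 included, and without P3 replicate 1 it called B2m higher.

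**Figure D2:**
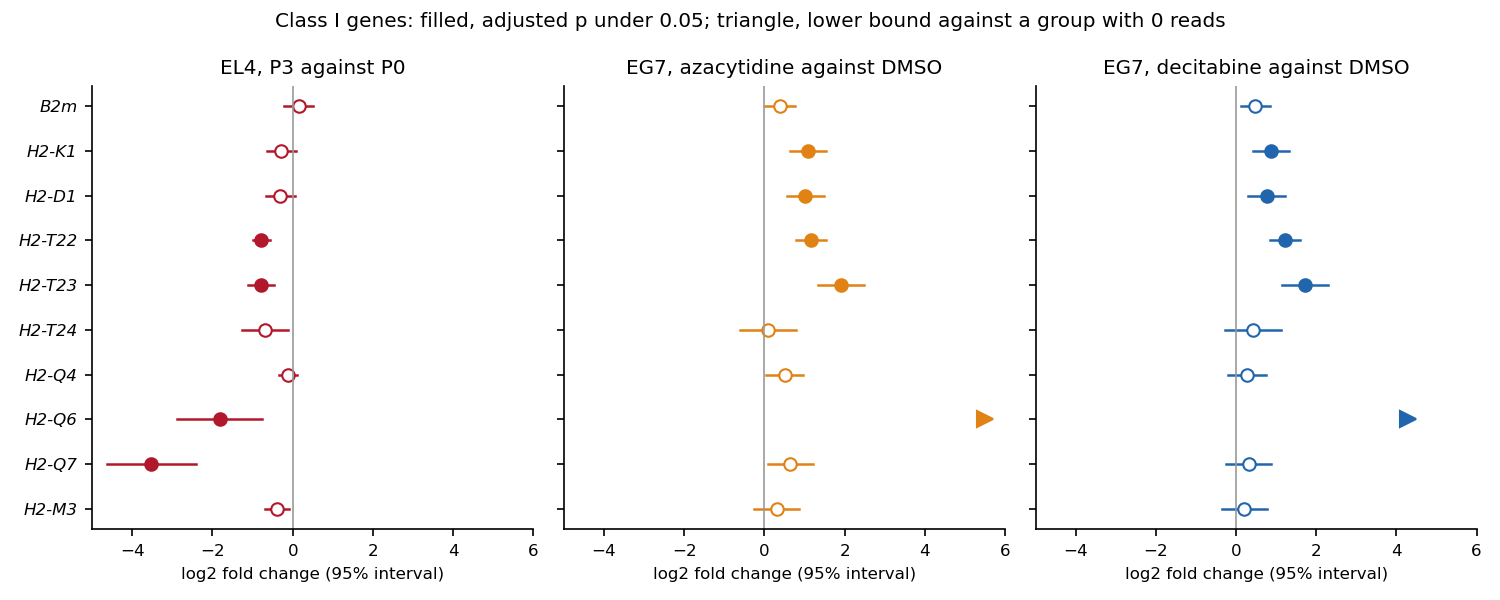
Log2 fold change of each class I gene with its 95% interval in P3 against P0 tumours (left), azacytidine against DMSO (middle) and decitabine against DMSO (right); filled points passed an edgeR adjusted p of 0.05, open points did not, and triangles are lower bounds for H2-Q6 against DMSO, where it had 0 reads. In EL4 the 4 filled points lie left of 0, from -3.52 to -0.78, and in both EG7 panels H2-K1, H2-D1, H2-T22, H2-T23 and H2-Q6 lie right of it.

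In EG7-OVA cells both drugs went with more RNA of the classical heavy chains H2-K1 and H2-D1 and of the nonclassical H2-T22 and H2-T23. These 4 and H2-Q6, 5 of the 10 members, were called higher with azacytidine and also with decitabine, and 0 fell with either drug. Of the 19123 genes tested, 20.3% were called with azacytidine, 13.6% higher and 6.7% lower, and 16.7% with decitabine, 12.4% higher and 4.3% lower. H2-Q6 passed the filter on low counts only through the drug-treated libraries, which favours a difference, so its call is set apart. Of the other 9 members, 4 rose with each drug. No member was lower at an unadjusted p of 0.05, and DESeq2 and limma-voom called 0 lower with either drug. The median log2 fold change of the members was 0.83 with azacytidine and 0.62 with decitabine, beside 0.033 and 0.036 over all genes tested. Libraries did not overlap with DMSO for 8 members with azacytidine, where 61.1% of all genes did not, and for 7 with decitabine, where 58.8% did not. The 2 comparisons share the DMSO libraries, the doses differ, and no test was made between the drugs.

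H2-K1 stood at 2036 and 1686 CPM with azacytidine and 1341 and 1851 CPM with decitabine, against 867 and 878 CPM with DMSO. All 4 drug-treated libraries were above both DMSO libraries, which lay close together, and the decitabine libraries were the more spread pair. The log2 fold change of H2-K1 was 1.09 ± 0.20 with azacytidine (edgeR adjusted p = 0.00483) and 0.87 ± 0.20 with decitabine (adjusted p = 0.0164). H2-D1 stood at 1865 and 1530 CPM with azacytidine and 1195 and 1646 CPM with decitabine, against 853 and 823 CPM with DMSO. Again no drug-treated library reached down to DMSO, and H2-D1 rose by 1.02 ± 0.20 with azacytidine (adjusted p = 0.00671) and 0.76 ± 0.20 with decitabine (adjusted p = 0.0293). The classical calls rest in part on single libraries. Without azacytidine replicate 1, H2-K1 was at 0.92 (adjusted p = 0.0642) and H2-D1 at 0.84 (adjusted p = 0.0861). Without decitabine replicate 2, H2-K1 was at 0.60 (adjusted p = 0.221) and H2-D1 at 0.50 (adjusted p = 0.326). The decitabine call of H2-D1 was lost in 5 of 6 such repeats, all but the one without decitabine replicate 1.

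The T-region chains H2-T22 and H2-T23 also rose with both drugs. H2-T23 stood at 109 and 86.4 CPM with azacytidine and 71.4 and 101 CPM with decitabine, against 20.3 and 31.9 CPM with DMSO. The lowest drug-treated library held more than the highest DMSO library by a wide margin, and H2-T23 rose by 1.90 ± 0.26 (adjusted p = 0.000845) with azacytidine and 1.72 ± 0.26 (adjusted p = 0.00173) with decitabine, folds of 3.74 and 3.30. H2-T22 stood at 143 and 129 CPM with azacytidine and 136 and 150 CPM with decitabine, against 56.1 and 65.9 CPM with DMSO. Its log2 fold changes were 1.16 ± 0.17 with azacytidine (adjusted p = 0.00120) and 1.23 ± 0.17 with decitabine (adjusted p = 0.00103). H2-T22 and H2-T23 passed with both drugs in all 14 alternatives that tested them singly. H2-T24, their neighbour, stood at 7.91 and 14.4 CPM with azacytidine and 14.4 and 13.6 CPM with decitabine, against 9.75 and 11.3 CPM with DMSO. The azacytidine libraries fell on both sides of DMSO, and H2-T24 did not pass with azacytidine (0.09 ± 0.31, adjusted p = 0.885) or decitabine (0.41 ± 0.31, adjusted p = 0.426). The sum of the 6 listed H2-T rows rose by 1.33 ± 0.18 with azacytidine (adjusted p = 0.000845) and 1.30 ± 0.18 with decitabine (adjusted p = 0.00112).

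H2-Q6 had 43 and 66 reads with azacytidine and 16 and 40 reads with decitabine, against 0 and 0 reads with DMSO. With the DMSO group set at a floor of 3 reads, it was at least 45.3-fold higher with azacytidine and at least 19.7-fold higher with decitabine. The edgeR calls (adjusted p = 0.000666 and 0.00221) were favoured by the filter, as given above. H2-Q6 remained a rare transcript, at 2.81 and 3.93 CPM with azacytidine and 0.816 and 2.19 CPM with decitabine. Its near copy H2-Q7 was already present in DMSO, at 62.9 and 63.7 CPM with azacytidine and 36.0 and 65.0 CPM with decitabine, against 43.5 and 37.4 CPM with DMSO. Both azacytidine libraries were above DMSO, the decitabine libraries fell on both sides of it, and H2-Q7 passed with neither drug (0.65 ± 0.25, adjusted p = 0.101, and 0.32 ± 0.25, adjusted p = 0.445), though with azacytidine it passed in 4 of 14 alternatives. H2-Q4 stood at 182 and 199 CPM with azacytidine and 128 and 196 CPM with decitabine, against 126 and 143 CPM with DMSO. It did not pass either, at 0.50 ± 0.21 with azacytidine (adjusted p = 0.122) and 0.27 ± 0.21 with decitabine (adjusted p = 0.430). H2-M3 stood at 29.2 and 29.6 CPM with azacytidine and 26.4 and 28.2 CPM with decitabine, against 17.6 and 29.8 CPM with DMSO. Its DMSO libraries were the widest pair and spanned all drug-treated values, and its log2 fold changes were 0.31 ± 0.25 with azacytidine (adjusted p = 0.432) and 0.20 ± 0.25 with decitabine (adjusted p = 0.648).

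B2m stood at 847 and 752 CPM with azacytidine and 884 and 812 CPM with decitabine, against 613 and 602 CPM with DMSO. All drug-treated libraries were above DMSO, yet B2m did not pass over all genes with azacytidine (0.40 ± 0.17, 95% interval 0.03 to 0.76, adjusted p = 0.124) or decitabine (0.48 ± 0.17, 95% interval 0.11 to 0.85, adjusted p = 0.0767). DESeq2 called it with both drugs, at adjusted p = 0.0480 and 0.0187. The 9 heavy chains summed rose by 1.03 ± 0.21 with azacytidine (edgeR adjusted p = 0.00681) and 0.80 ± 0.21 with decitabine (adjusted p = 0.0245). The ratio of heavy chain counts to B2m counts was 5.24 and 4.97 with azacytidine and 3.34 and 4.99 with decitabine, against 3.25 and 3.35 with DMSO. Both azacytidine libraries and 1 decitabine library were above DMSO, and the other decitabine library lay within the DMSO range. The ratio of H2-K1 to H2-D1 was 1.09 and 1.10 with azacytidine and 1.12 and 1.12 with decitabine, against 1.02 and 1.07 with DMSO, so it was higher in all 4 drug-treated libraries by a small amount. All 10 members together took 0.515% and 0.457% of counts with azacytidine and 0.387% and 0.486% with decitabine, against 0.246% and 0.275% with DMSO.

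**Figure D3:**
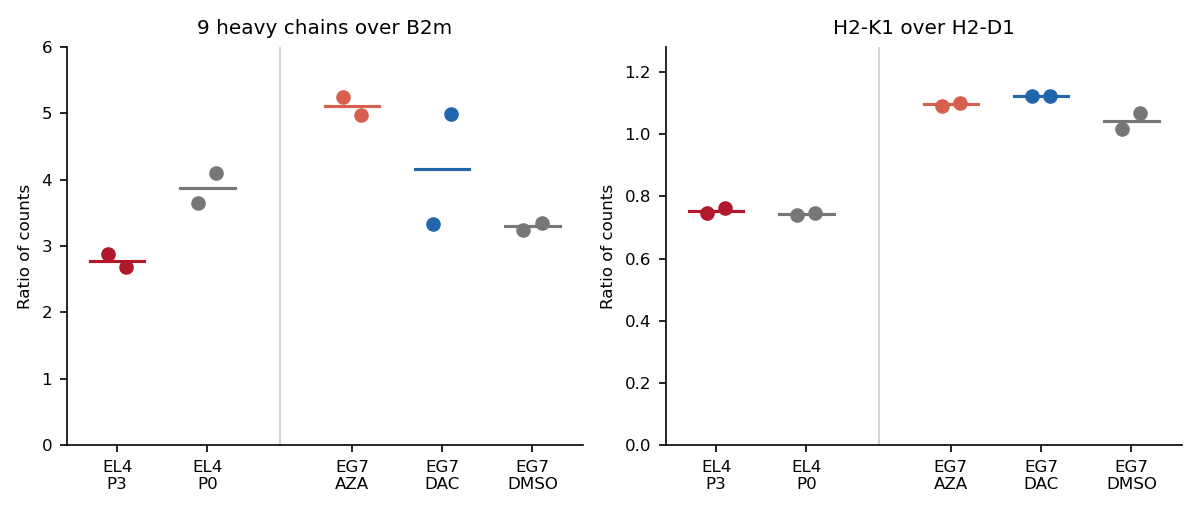
Ratio of the summed counts of 9 class I heavy chains to B2m counts (left) and of H2-K1 to H2-D1 counts (right) in every library; points are libraries and bars are means of 2. The heavy chain to B2m ratio is 2.69 to 2.88 in P3 against 3.65 to 4.11 in P0 tumours, and 4.97 to 5.24 with azacytidine and 3.34 to 4.99 with decitabine against 3.25 to 3.35 with DMSO.

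Markers of other cell types were also read in the cultured EG7-OVA cells. The 9 B-cell markers summed to 384 and 385 CPM with azacytidine and 459 and 419 CPM with decitabine, against 353 and 434 CPM with DMSO, most of it Ighm, and 0 to 4 of them were at 0 in each library. The 7 endothelial markers summed to 62.8 and 68.9 CPM with azacytidine and 78.4 and 86.1 CPM with decitabine, against 58.9 and 78.4 CPM with DMSO, most of it Pecam1, and 2 to 4 were at 0. Both sums overlapped between drug-treated and DMSO libraries. The 10 dendritic cell markers summed to 13.4 to 21.9 CPM with the drugs, against 17.9 and 26.9 CPM with DMSO, and the 10 neutrophil markers to at most 1.49 CPM in any library. The 12 macrophage markers summed to 25.3 and 21.99 CPM with azacytidine and 41.5 and 37.1 CPM with decitabine, against 7.29 and 8.92 CPM with DMSO, and 4 to 7 of them were at 0 in each library. The 7 fibroblast markers summed to 80.4 and 32.8 CPM with azacytidine and 70.0 and 55.0 CPM with decitabine, against 3.37 and 32.4 CPM with DMSO. Of 6 NK cell markers 1 to 5 were at 0 in each library, and they summed to 5.82 and 3.52 CPM with azacytidine and 12.3 and 6.50 CPM with decitabine, against 14.7 and 23.7 CPM with DMSO. Their part in the class I results was not tested.

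Other class I-like heavy chains, read from a list of 28 that includes the remaining Q, T and M genes and relatives such as Cd1d1 and Fcgrt, did not all move with the members. In EL4, 14 were tested, of which 8 were lower and 1 was higher in P3, or 64.3% beside the 38.7% called over all genes. Of the 8, H2-Q1 and H2-Q9 passed the filter on low counts only through the P0 libraries, which favours a call. The 64.3% includes them. H2-Q9, another Qa-2 gene, stood at 0.221 and 0.307 CPM in P3 tumours, against 4.54 and 4.22 CPM in P0 tumours (-4.02 ± 0.35, adjusted p = 0.00193). H2-Q5 stood at 0.929 and 0.614 CPM in P3 tumours, against 6.91 and 8.79 CPM in P0 tumours (-3.34 ± 0.32, adjusted p = 0.00242). H2-Q5 reached the filter in all 4 libraries. H2-M5 went the other way, at 19.1 and 11.4 CPM in P3 tumours, against 1.85 and 1.63 CPM in P0 tumours (3.13 ± 0.32, adjusted p = 0.00273).

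In EG7, 11 of the list were tested, and 3 were higher and 2 lower with each drug, or 45.5% beside 20.3% called over all genes with azacytidine and 16.7% with decitabine. H2-Q5 and H2-T9, among those higher with each drug, had neither DMSO library at the filter, which favours a call. The 45.5% includes them. H2-Q2 stood at 31.3 and 26.3 CPM with azacytidine and 61.8 and 34.5 CPM with decitabine, against 287 and 220 CPM with DMSO. H2-Q1 stood at 7.32 and 7.87 CPM with azacytidine and 12.8 and 10.9 CPM with decitabine, against 56.5 and 38.9 CPM with DMSO. Both lay far below DMSO in all 4 drug-treated libraries, opposite in sign to the members. H2-Q1 and H2-Q2 share sequence as well, and 5.09% of the 100-base windows of H2-Q2 also occur in H2-Q1. H2-Q2 fell by 3.14 (SE 0.28, adjusted p = 9.14e-05) with azacytidine and fell by 2.39 (SE 0.27, adjusted p = 0.000375) with decitabine. H2-Q1 fell by 2.65 (SE 0.26, adjusted p = 0.000135) with azacytidine and fell by 2.01 (SE 0.25, adjusted p = 0.000579) with decitabine. Summed over all H2-Q rows, the counts were 4420 and 5098 with azacytidine and 4717 and 5683 with decitabine, against 10195 and 8821 with DMSO, of which the 3 members H2-Q4, H2-Q6 and H2-Q7 held 3364 and 3615. This sum fell by 0.68 (SE 0.18, adjusted p = 0.0245) with azacytidine and fell by 0.79 (SE 0.18, adjusted p = 0.0156) with decitabine. Summed over the members H2-Q4, H2-Q6 and H2-Q7 alone, the log2 fold change was 0.56 ± 0.22 (adjusted p = 0.0976) and 0.29 ± 0.22 (adjusted p = 0.406). H2-T10, the near copy of H2-T22, stood at 39.1 and 40.8 CPM with azacytidine and 31.7 and 39.9 CPM with decitabine, against 16.1 and 15.6 CPM with DMSO, and rose by 1.33 ± 0.20 (adjusted p = 0.00134) and 1.17 ± 0.20 (adjusted p = 0.00315).

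**Figure D4:**
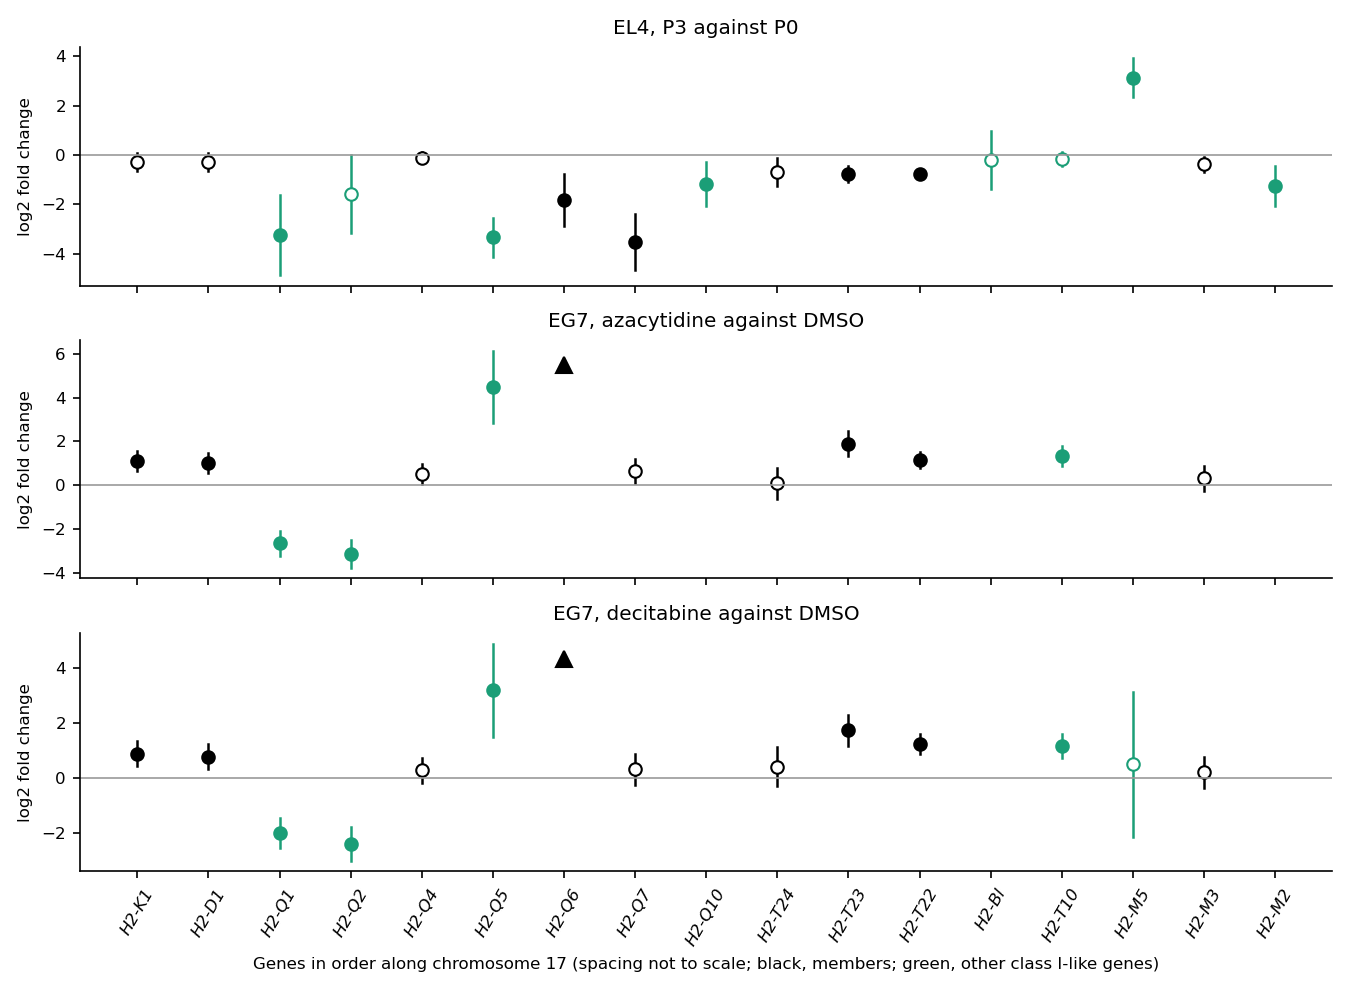
Log2 fold change with its 95% interval of the class I genes tested on chromosome 17, in the order of their starts and with spacing not to scale, for P3 against P0 (top), azacytidine against DMSO (middle) and decitabine against DMSO (bottom); black marks the 9 heavy chain members, green the other class I-like genes, filled points passed an adjusted p of 0.05, and triangles are lower bounds. H2-M5 with azacytidine is not drawn because it had 0 reads there. H2-Q9, tested in EL4, and H2-T9, tested in EG7, are not drawn because the annotation used gave them no position. In EG7 the neighbours H2-Q1 and H2-Q2 lie at -3.14 to -2.01, between H2-D1 at 0.76 to 1.02 and H2-Q4 at 0.27 to 0.50.

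Genes that supply and load peptide were read from a list of 13. In EL4, 8 fell and 1 rose in P3 (median log2 fold change -0.59), or 69.2% called beside 38.7% over all genes, among them the immunoproteasome and its activator. Psmb10, a catalytic immunoproteasome subunit, stood at 23.4 and 20.3 CPM in P3 tumours, against 52.9 and 51.8 CPM in P0 tumours (-1.26 ± 0.12, adjusted p = 0.00221). Psme1, a subunit of the PA28 activator, stood at 73.2 and 66.6 CPM in P3 tumours, against 134 and 136 CPM in P0 tumours (-0.95 ± 0.09, adjusted p = 0.00242), and its partner Psme2, which may share reads with the copy Psme2b, fell by 0.84 (SE 0.09, adjusted p = 0.00273). Psmb8 and Psmb9, the other catalytic subunits, had log2 fold changes of -0.59 (SE 0.08, adjusted p = 0.00580) and -0.77 (SE 0.09, adjusted p = 0.00343), whereas Tap1, a subunit of the peptide transporter, did not pass (-0.26 ± 0.10, adjusted p = 0.0955). The 1 that rose was Erap1, which trims peptides in the endoplasmic reticulum and was named after its value was seen (0.56 ± 0.09, adjusted p = 0.00898).

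With the drugs 3 of the 13 (23.1%) rose with each drug and 0 fell, beside 13.6% higher over all genes with azacytidine and 12.4% with decitabine, at medians of 0.14 with azacytidine and 0.23 with decitabine. Tap1 stood at 399 and 360 CPM with azacytidine and 288 and 389 CPM with decitabine, against 185 and 195 CPM with DMSO (0.99 ± 0.19, adjusted p = 0.00478, and 0.83 ± 0.19, adjusted p = 0.0134). Tapbp, which encodes tapasin and bridges the heavy chain to the transporter, stood at 224 and 172 CPM with azacytidine and 176 and 227 CPM with decitabine, against 89.5 and 94.4 CPM with DMSO. It rose by 1.11 ± 0.19 (adjusted p = 0.00334) and 1.13 ± 0.19 (adjusted p = 0.00354), and Tap2, the other transporter subunit, by 0.79 ± 0.20 (adjusted p = 0.0176) and 0.65 ± 0.19 (adjusted p = 0.0473). For these 3 genes all drug-treated libraries were above DMSO. Psmb8 overlapped DMSO with both drugs (0.12 ± 0.18 and 0.08 ± 0.18, adjusted p = 0.689 and 0.815), and Psmb9 did not pass either (0.14 ± 0.18 and 0.19 ± 0.18, adjusted p = 0.628 and 0.522).

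Of 19 regulators of class I transcription, 5 fell and 1 rose in P3 tumours (median log2 fold change -0.20). That is 31.6%, below the 38.7% called over all genes, so the genes named here do not set the list apart. Irf1, an interferon-induced factor that binds the ISRE, stood at 56.7 and 42.4 CPM in P3 tumours, against 81.0 and 87.1 CPM in P0 tumours (-0.76 ± 0.16, adjusted p = 0.0158). Irf9, a factor of interferon signalling, stood at 16.8 and 17.9 CPM in P3 tumours, against 30.8 and 35.9 CPM in P0 tumours, and fell by 0.94 (SE 0.13, adjusted p = 0.00577). Creb1, a factor that binds the cAMP response element, stood at 52.6 and 61.1 CPM in P3 tumours, against 89.4 and 101.7 CPM in P0 tumours (-0.75 ± 0.12, adjusted p = 0.00814). Irf8, a factor of myeloid and B-cell lineages, stood at 13.8 and 13.5 CPM in P3 tumours, against 85.8 and 94.0 CPM in P0 tumours (-2.72 ± 0.11, adjusted p = 0.000366), beside the lower macrophage and B-cell marker sums given above. Nlrc5 stood at 260 and 220 CPM in P3 tumours, against 283 and 320 CPM in P0 tumours, and did not pass (-0.33 ± 0.13, adjusted p = 0.0862). The 1 regulator that rose was Nfkb1, named after its value was seen (0.49 ± 0.09, adjusted p = 0.0129).

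With the drugs 3 of the 19 regulators (15.8%) rose and 0 fell, near the 13.6% and 12.4% higher over all genes, at medians of -0.079 with azacytidine and -0.096 with decitabine. Irf1 stood at 70.6 and 53.3 CPM with azacytidine and 89.0 and 88.5 CPM with decitabine, against 18.9 and 19.5 CPM with DMSO (1.69 ± 0.19, adjusted p = 0.000286, and 2.21 ± 0.19, adjusted p = 9.33e-05). Irf9 stood at 20.3 and 16.03 CPM with azacytidine and 20.9 and 26.9 CPM with decitabine, against 6.74 and 7.48 CPM with DMSO (1.35 ± 0.25, adjusted p = 0.00496, and 1.75 ± 0.26, adjusted p = 0.00156). Every drug-treated library was well above DMSO for both genes. Rfx5, a subunit of the complex that binds the X box of class I and class II promoters, rose by 1.12 ± 0.19 (adjusted p = 0.00289) and 1.06 ± 0.19 (adjusted p = 0.00463). Nlrc5 stood at 283 and 379 CPM with azacytidine and 308 and 441 CPM with decitabine, against 246 and 225 CPM with DMSO. Its drug-treated libraries were all above DMSO, but it passed with neither drug (0.49 ± 0.22, adjusted p = 0.142, and 0.67 ± 0.22, adjusted p = 0.0604).

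**Figure D5:**
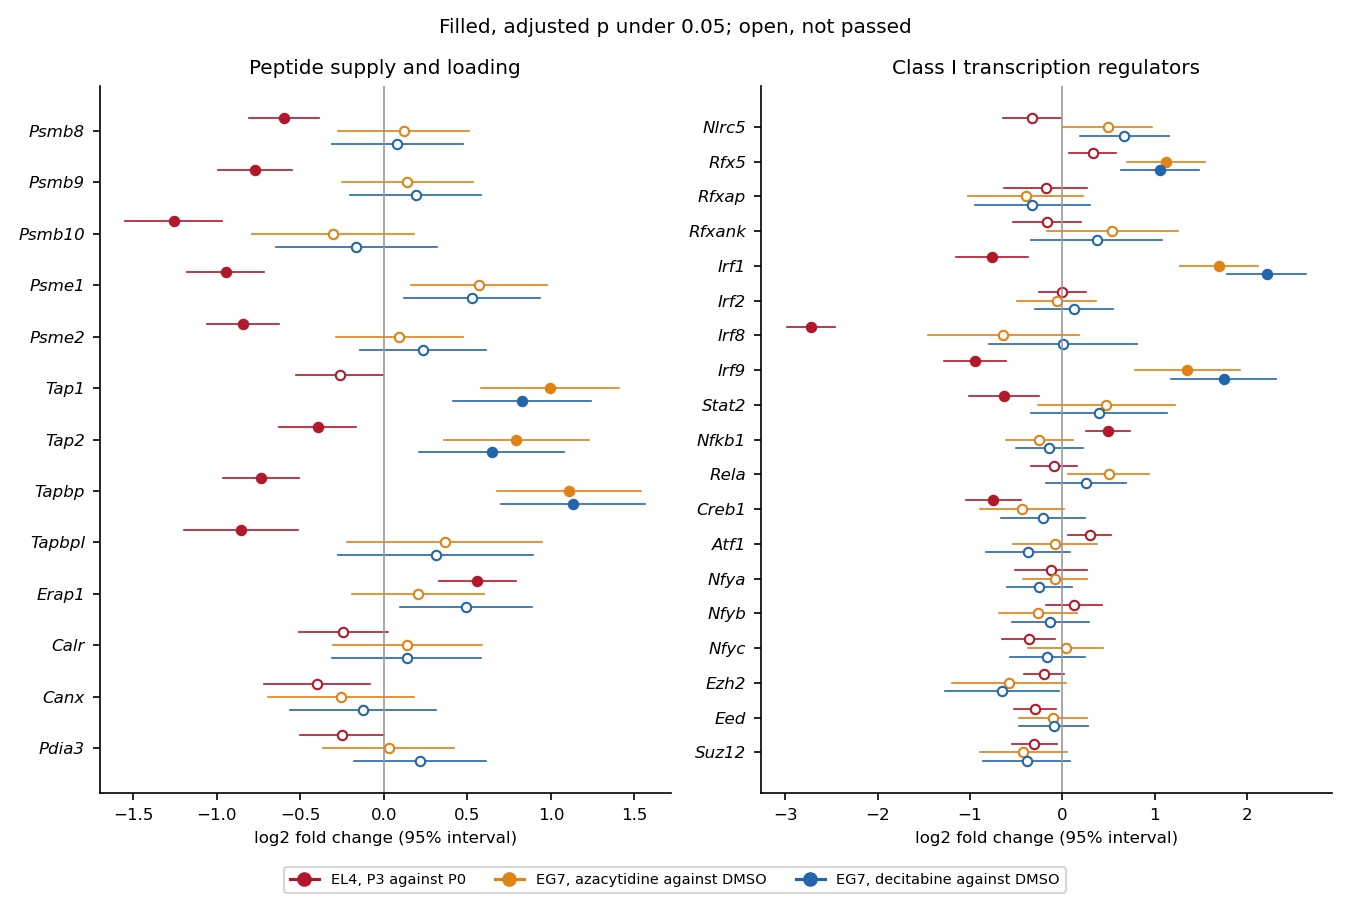
Log2 fold change with its 95% interval of 13 genes of peptide supply and loading (left) and 19 regulators of class I transcription (right), for P3 against P0 in red, azacytidine against DMSO in orange and decitabine against DMSO in blue; filled points passed an edgeR adjusted p of 0.05. Tap1, Tap2, Tapbp, Rfx5, Irf1 and Irf9 are filled and right of 0 with both drugs, and Irf8 in EL4 lies farthest left at -2.72.

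The genes whose pattern over the 10 libraries was most like that of H2-K1 were found by Pearson's r of log2 CPM after subtracting the P0 or DMSO mean of the same table, over 9318 genes at 5 CPM or more on average in both tables. They were Tap1 (r = 0.997), Nfkbia, the inhibitor of NF-kappaB (0.994), Synrg (0.992), Wdr6 (0.989) and the AP-1 subunit gene Jund (0.988). Among the members H2-D1 was the most like H2-K1 (0.998), followed by H2-T23 (0.970) and H2-T22 (0.948), whereas B2m stood at 0.792 and H2-T24 at 0.491. The genes most like B2m were Zfp608 (0.969), Tnfrsf26 (0.952), Casp1 (0.942), Hk1 (0.940) and Stxbp2 (0.936), and no heavy chain reached these values. The points share libraries and control groups, so these coefficients are a description only.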

How the data were processed

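RNA sequencing of total RNA, extracted with Trizol per the labels' protocols, gave the tables used here. The deposited EL4 table holds raw counts per gene symbol. The EG7 table holds counts of which 145 values, in 62 of 55969 rows and in no member, are not whole, so it was treated as deposited expected counts and rounded. Per the submitters' processing notes fastp, Trim Galore, STAR and featureCounts were used, with builds mm10 and GRCh38; the sources used here do not give versions, settings, strandedness or the treatment of reads that fit several genes. Such reads may be dropped or split among Q-region and T-region copies.

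Each table was fitted alone in edgeR 4.0.16 (R 4.3.3) after filterByExpr and TMM scaling, with 1 mean per group. All 6 EG7 libraries were fitted together. Differences were tested two-sided with edgeR's quasi-likelihood F test, and p-values were adjusted over all genes tested by Benjamini-Hochberg, at a threshold of 0.05. Standard errors are the log2 fold change over the root of F. All 10 members passed the filter in both tables. Groups without a read were set at 3 counts over the group, which covers counting error only. CPM values use TMM-scaled library sizes. The steps were also run on counts simulated from the fitted spread, with no reads shared between genes. That run checks the code and not the results given here.

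The members, gene lists and motif letters were chosen with earlier results of these data known. 1 gene of the regulator list is not reported here, and the list's counts leave it out. Named genes were the members, the 3 of smallest p per list and comparison, 5 fixed genes (Nlrc5, Tap1, Psmb8, Psmb9, Irf1) and the 5 most like H2-K1 and B2m. The alternatives tried were DESeq2 1.42.0, limma-voom (limma 3.58.1), median-ratio scaling, no filter, a stricter filter (1 CPM in every library of a group and 100 counts in all), a replicate block, only the 4 libraries compared, an absolute log2 fold change above 1, summed rows, and leaving out each library. DESeq2 without each EL4 library and the sum of H2-Q4, H2-Q6 and H2-Q7 were added after seeing the data. Where 1 library of a group was left, it was assumed to vary like the others.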

Additional observations from a re-analysis of the deposited data

How the results depend on the processing

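Over the 3 comparisons, 6 of the 30 log2 fold changes of members changed sign under an alternative, in 8 values, all when a library was left out and all of members that had not passed. In EL4, B2m came to -0.029 without P3 replicate 2 and to -0.023 by DESeq2 without it, in a range of -0.029 to 0.317. With azacytidine, H2-T24 came to -0.035 without DMSO replicate 1 and to -0.446 without azacytidine replicate 2 (range -0.446 to 0.420), and H2-M3 to -0.040 without DMSO replicate 1 (range -0.040 to 0.688). With decitabine, H2-M3 came to -0.135 without DMSO replicate 1 (range -0.135 to 0.584), and H2-Q4 and H2-Q7 to -0.084 and -0.184 without decitabine replicate 2 (ranges -0.084 to 0.510 and -0.184 to 0.643).

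With each library left out in turn, by edgeR and in EL4 also by DESeq2, members called lower in P3 numbered from 0 to 8 and members called higher from 0 to 1. Members called higher ranged from 3 to 6 with azacytidine and from 3 to 5 with decitabine, and 0 were lower. With an absolute log2 fold change above 1, 2 members were lower in P3 and 3 were higher with decitabine. With all H2-Q rows summed and the listed H2-T rows summed, 6 features remain in place of 10. Of these 1 was lower in P3, 3 were higher and 1 lower with azacytidine, and 3 were higher and 1 lower with decitabine; fewer features and the inclusion of H2-Q1 and H2-Q2 are part of this setting. Apart from leaving out libraries in turn, the other 45 counts stayed within 1.5 times. Many of these are 0 against 0, and such pairs meet the rule without testing it.

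Libraries with the same number did not deviate together (r = -0.034 in EL4, -0.26 with azacytidine and -0.19 with decitabine), and the EG7 DMSO titles give other numbers than the library names. With the number as a replicate block, 3 members were lower in P3 (H2-Q6 at adjusted p = 0.0535), and 5 were higher with each drug. Depth limits H2-Q6 in EL4, with 5 to 25 reads a library, which the stricter filter removed. The causes of these changes were not tested.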
